A study of Mus musculus with 4 samples.

Results

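Spp1, Gpnmb, Igf1, Fabp5 and Lgals3 are 5 of the 19737 genes in the single-cell expression matrix of brain microglia from amyloid model and control mice. They were taken by gene symbol, as genes of the microglial response to amyloid plaques that are often described as late. The genes were chosen by measured values of these mice: they were high in AppSAA mice given the isotype control against WT mice, and in a small cluster of cells, so the genotype contrast under the isotype control and the levels by cluster are given here as description, without a test. All 5 passed the filter on low counts, which left 14058 genes to test. In every AppSAA group the mean level of each gene was above that of both WT groups. The mice were sampled on 1 day after treatment and at no series of ages, so the word late could not be checked in these data.

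Microglia that gather at amyloid plaques lose part of their homeostatic expression and take on a program called disease-associated microglia (DAM), which depends on the lipid receptor TREM2. Spp1 encodes osteopontin, a secreted glycoprotein that binds integrins and CD44. Gpnmb encodes a transmembrane glycoprotein of late endosomes and lysosomes, Igf1 a secreted growth factor that signals through the IGF-1 receptor, Fabp5 a cytosolic carrier of fatty acids, and Lgals3 galectin-3, a lectin that binds β-galactosides and is recruited to damaged lysosomes.

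The mice were homozygous AppSAA;TfRmu/hu, which carry a humanized amyloid precursor protein gene with familial Alzheimer's disease mutations, or WT;TfRmu/hu controls, referred to as AppSAA and WT. All carried the TfRmu/hu allele, a transferrin receptor with the human apical domain. They received a single intravenous dose of 10 mg/kg of ATV:ISO, an isotype control, of 4D9, an antibody to mouse TREM2, or of ATV:4D9, the same antibody with an antibody transport vehicle, an Fc site that binds the human part of the receptor. There were 5 groups of 4 mice. WT mice received ATV:ISO or ATV:4D9 and AppSAA mice each of these 3 antibodies. No WT mice given 4D9 were analysed. The annotation names the isotype arm ATV-DNP02, taken here to be ATV:ISO although no text deposited with the data says so. An entry of the reporting summary gives male mice of 8 months, while WT;TfRmu/hu mice are listed from 2 months and of mixed sex, and WT ATV:ISO replicate 4 is recorded as female. The sources name a sort for CD11b+ or for CD45+ cells, and cortex alone or with hippocampus. The cells were run in 4 pools with 1 mouse from each group in a pool, and a replicate number here is the pool number.

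The matrix held 74758 cells, 2193 to 6126 for each mouse, with 17150296 to 102446549 unique molecular identifiers (UMIs, counted molecules) for each mouse. The median number of UMIs for each cell ran from 6859 to 17290 across mice and was higher in both ATV:4D9 groups, at a mean of 15338 in WT and 15523 in AppSAA mice, than under ATV:ISO, at 7566 and 9339. Levels are therefore given as CPM, the count of a gene scaled to a fixed total of UMIs for each mouse. In these sums of cells, fewer cells with a transcript and less transcript in each cell cannot be told apart. Some 543 barcode sequences occurred in more than 1 pool and were kept apart by pool. Markers of homeostatic microglia (10 genes) summed to 13391 to 26646 CPM across mice. Those of border macrophages summed to 13.1 to 41.2 CPM, of monocytes to 5.77 to 18.5, of neurons to 0.696 to 3.11 and of astrocytes to 2.02 to 7.94. Neutrophil, lymphocyte and oligodendrocyte markers (86.6 to 259, 161 to 275 and 33.6 to 73.5 CPM) had lower medians in both ATV:4D9 groups than in the other 3 groups, and their part in the results was not tested. Endothelial markers, some of which microglia express, summed to 516 to 779 CPM. Every marker gene had at least 1 UMI in every group, apart from 2 lymphocyte genes in WT mice given ATV:ISO and 1 neuronal gene in that group and in AppSAA mice given 4D9.

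Spp1 lies at chr5:104435111-104441053 on the + strand of GRCm38 and Gpnmb at chr6:49036518-49058182, also on the + strand. Their promoters are shown because these genes had the largest shares of their UMIs in a single cluster of cells. The sequences are the 250 bases before the annotated start of each gene (RefSeq, GRCm38.p6), chr5:104434861-104435110 and chr6:49036268-49036517, read 5′ to 3′. Capitals mark a match to GAGGAA, the core of sites of PU.1, a transcription factor of the myeloid lineage.
Spp1: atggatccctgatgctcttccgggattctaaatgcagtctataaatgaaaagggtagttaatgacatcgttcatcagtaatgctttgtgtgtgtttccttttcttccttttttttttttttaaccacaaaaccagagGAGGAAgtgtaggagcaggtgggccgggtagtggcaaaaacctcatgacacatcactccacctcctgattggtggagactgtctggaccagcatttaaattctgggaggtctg
Gpnmb: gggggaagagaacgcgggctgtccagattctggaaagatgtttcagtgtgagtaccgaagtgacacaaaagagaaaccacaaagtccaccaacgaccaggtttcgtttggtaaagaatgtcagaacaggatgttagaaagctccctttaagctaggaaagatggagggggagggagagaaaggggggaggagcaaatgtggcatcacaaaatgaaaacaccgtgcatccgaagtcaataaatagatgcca
Besides GAGGAA, the windows were searched on both strands for TGANTCA (AP-1), CACGTG (E-box) and TCATGTG (M-box, bound by MITF and TFE factors). GAGGAA stood 113 bases before the Spp1 start and 60 bases before the Igf1 start, and TGAATCA 37 bases before the Igf1 start. None of the 4 motifs was in the Gpnmb or Lgals3 window, which says only that these letters are not in 250 bases. Of 32851 promoter windows of the same length, 23.25% held GAGGAA, 6.749% TGANTCA, 6.021% CACGTG and 3.251% TCATGTG. Igf1 lies at chr10:87858265-87937047, and its window, chr10:87860861-87861110, is inside the gene at a later start. Lgals3 lies at chr14:47373860-47386167 and Fabp5 at chr3:10012585-10016610. Fabp5 has a processed pseudogene, Fabp5l2, and how reads that match both were assigned is not given in the sources used here.

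Spp1 stood at 1027, 768, 1237 and 416 CPM in AppSAA mice given ATV:ISO and at 20.1, 438, 59.7 and 109 CPM in WT mice given ATV:ISO. The lowest AppSAA mouse was thus below the highest WT mouse, WT ATV:ISO replicate 2. In that mouse 2 cells with 3932 and 2543 UMIs held 72.1% of 8980 Spp1 UMIs, and without them the mouse stood at 123 CPM. The other 4 genes showed no overlap between these groups. Gpnmb stood at 90.4, 125, 140 and 47.5 CPM in AppSAA and at 1.22, 5.42, 6.86 and 6.85 CPM in WT mice. Igf1 stood at 105, 141, 145 and 107 against 4.37, 9.67, 6.24 and 6.61 CPM. Fabp5 stood at 330, 468, 419 and 299 against 15.3, 41.1, 22.4 and 26.4 CPM. Lgals3 had the narrowest gap, at 85.2, 78.5, 102 and 66.7 against 10.7, 40.0, 11.9 and 14.3 CPM. The log2 fold changes of AppSAA over WT mice under ATV:ISO, which chose these genes, were 2.63 for Spp1, 4.48 for Gpnmb, 4.39 for Igf1, 4.04 for Fabp5 and 2.29 for Lgals3. Of all genes tested, 28.2% were called in this contrast, and nothing is read from it.

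**Figure D1:**
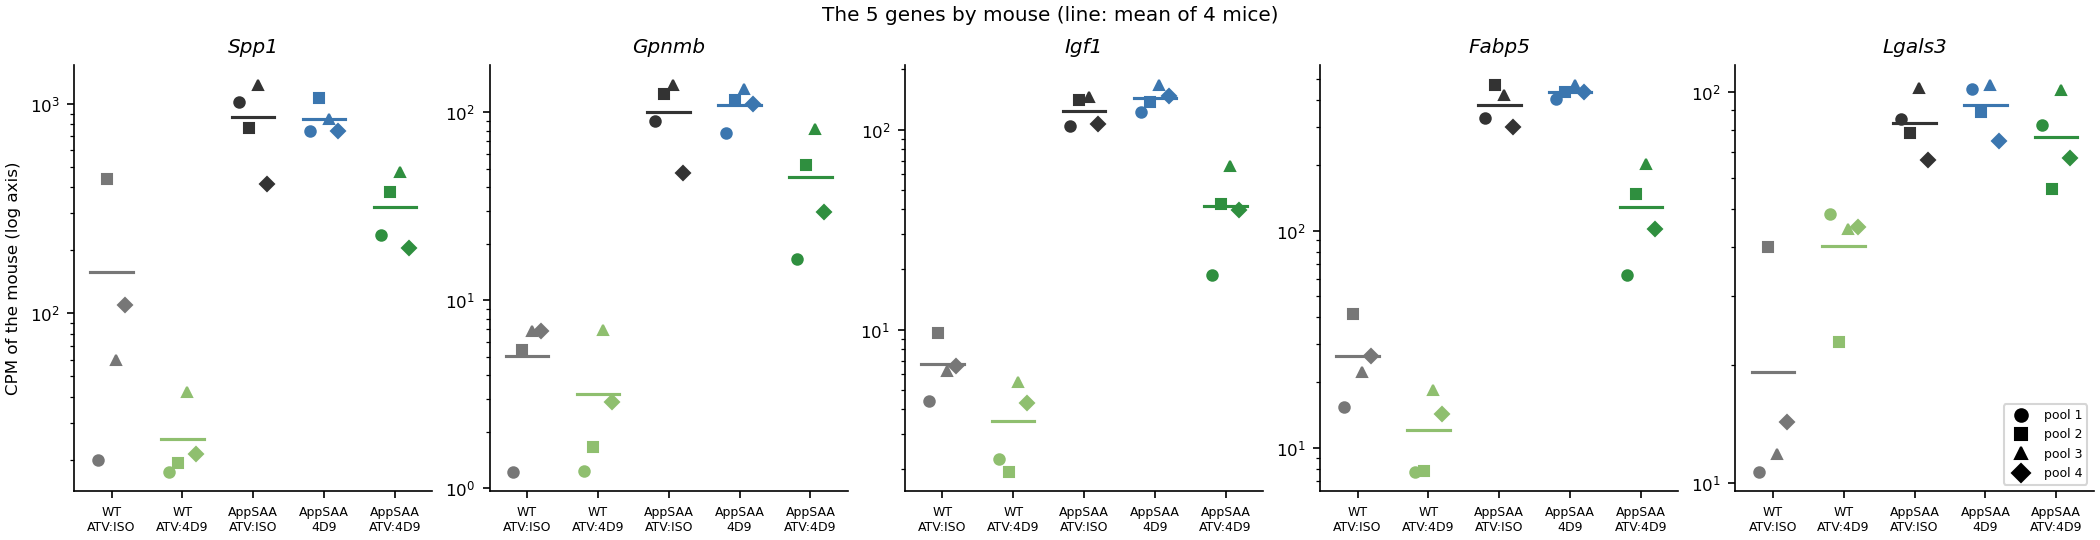
Level of each gene in each mouse (CPM, log axis) in the 5 groups, with a symbol for each pool and a line at the group mean. Spp1, Gpnmb, Igf1 and Fabp5 are highest in AppSAA mice given ATV:ISO or 4D9 and lower with ATV:4D9, while Lgals3 lies between 56.4 and 104 CPM in all 12 AppSAA mice.

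Homeostatic-like cells also held UMIs of these genes. In homeostatic-like cells of WT mice given ATV:ISO, Spp1 stood at 13.6, 15.9, 40.2 and 19.9 CPM in pools 1 to 4, with a UMI in 9.15% to 28.2% of cells. The whole-mouse Spp1 levels of WT mice given ATV:4D9, 17.5, 19.2, 42.1 and 21.3 CPM, lay within 4 CPM of that level in each pool. Both series were highest in pool 3. Gpnmb in WT ATV:4D9 mice, at 1.23, 1.66, 6.94 and 2.90 CPM, also followed the homeostatic-like cells of its pools, at 0.999, 1.44, 6.39 and 3.58 CPM. Igf1, at 2.25, 1.95, 5.46 and 4.31 against 2.50, 1.86, 4.44 and 4.56 CPM, did the same. Lgals3 did not: it stood at 48.8, 22.9, 44.4 and 45.1 CPM in WT ATV:4D9 mice against 4.93, 4.74, 6.77 and 6.59 CPM in homeostatic-like cells. Fabp5, at 7.74, 7.83, 18.4 and 14.3 against 6.25, 9.69, 16.1 and 12.3 CPM, was also near it. Single cells still carried more in these mice: the 20 cells richest in Spp1 held 27.8% to 37.2% of the Spp1 UMIs of a WT mouse given ATV:4D9, with 94 to 399 UMIs in the richest cell. How much of these low levels is background was not tested.

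The first question was what ATV:4D9 does to these genes where there are no plaques. The WT mice given ATV:ISO also entered the contrast that chose the genes, so this comparison is not independent of the choice. In WT mice it lowered Spp1 by 2.56 on the log2 scale (SE 0.61, adjusted p = 0.00108, edgeR quasi-likelihood test with Benjamini-Hochberg adjustment over all genes), from 157 ± 191 to 25.0 ± 11.5 CPM (SD, n = 4). Igf1 fell by 0.85 ± 0.33 (SE, adjusted p = 0.0307) and Fabp5 by 1.03 ± 0.32 (adjusted p = 0.0081). These falls are relative to the larger UMI total with ATV:4D9. The mean number of UMIs for each cell went from 0.0581 to 0.0604 for Igf1 and from 0.228 to 0.208 for Fabp5. That of Spp1 went from 1.34 to 0.426. By mouse, Spp1 stood at 0.157, 3.64, 0.528 and 1.04 UMIs for each cell with ATV:ISO. With ATV:4D9 it stood at 0.278, 0.287, 0.739 and 0.399, which was higher in pools 1 and 3 and lower in pools 2 and 4. In WT ATV:ISO replicates 2 and 4, 2 cells of each mouse held 72.1% and 51.1% of the Spp1 UMIs. Lgals3 rose by 1.19 ± 0.33 (adjusted p = 0.00425), from 19.2 ± 13.9 to 40.3 ± 11.8 CPM (SD, n = 4). Its groups overlapped, since WT ATV:ISO replicate 2 at 40.0 CPM was above WT ATV:4D9 replicate 2 at 22.9 CPM. The groups of Spp1, Igf1 and Fabp5 overlapped too. Their lowest ATV:ISO mice stood at 20.1, 4.37 and 15.3 CPM and their highest ATV:4D9 mice at 42.1, 5.46 and 18.4 CPM. Gpnmb had a log2 fold change of -0.63 ± 0.55 (adjusted p = 0.334). The test called 4 of 5 genes, against 63.3% of all genes in this comparison. Without WT ATV:ISO replicate 2, Spp1 fell by 1.20 (adjusted p = 0.0207), and neither Igf1 (adjusted p = 0.143) nor Fabp5 (-0.71, adjusted p = 0.0589) passed the test. Spp1 fell by 1.23 without cells above 25000 UMIs. Igf1 also missed the threshold without WT ATV:4D9 replicate 1 (adjusted p = 0.0893) or 2 (adjusted p = 0.0976) and with limma-voom (adjusted p = 0.0538), and Gpnmb passed it without WT ATV:4D9 replicate 3 (-1.28, adjusted p = 0.0468). Lgals3 kept its call without any single mouse, at log2 fold changes of 1.00 to 1.85.

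In AppSAA mice, where the response is present, Gpnmb, Igf1 and Fabp5 were called lower with ATV:4D9 than with ATV:ISO. The call of Gpnmb depended on single mice and on the tool, as given below. Igf1 stood at 18.7, 42.3, 65.8 and 39.8 CPM with ATV:4D9, all below the lowest ATV:ISO mouse at 105 CPM, and fell by 1.53 ± 0.28 on the log2 scale (SE, adjusted p = 0.000133). Fabp5 stood at 62.7, 148, 202 and 101 CPM, also below every ATV:ISO mouse, and fell by 1.52 ± 0.31 (adjusted p = 0.00032). Gpnmb stood at 16.6, 52.4, 82.0 and 29.5 CPM, where the ranges of the groups overlapped, and fell by 1.12 ± 0.45 (adjusted p = 0.0419). Spp1 stood at 238, 378, 472 and 205 CPM, where the highest mouse was above the lowest ATV:ISO mouse, with a log2 fold change of -1.35 ± 0.58 (adjusted p = 0.0537). With pool as a block Spp1 fell by 1.40 (adjusted p = 0.0194). Lgals3 stood at 82.0, 56.4, 101 and 67.6 CPM, within the range of ATV:ISO but for 1 mouse, with a log2 fold change of -0.04 ± 0.32 (adjusted p = 0.931). These changes too are relative to a larger UMI total with ATV:4D9. The mean number of Lgals3 UMIs for each cell went from 0.958 to 1.32. That of Igf1 went from 1.44 to 0.707 and that of Fabp5 from 4.37 to 2.17. For Gpnmb it went from 1.16 to 0.759 and for Spp1 from 9.87 to 5.46. In all, 3 of 5 genes were called, against 55.1% of all genes. These mice given ATV:ISO are the ones whose high values were used to choose the genes. That favors lower values with ATV:4D9, so this comparison is not independent of the choice.

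The calls of Igf1 and Fabp5 held without any single mouse. The call of Gpnmb did not hold without AppSAA ATV:ISO replicate 1, 2 or 3 or ATV:4D9 replicate 1, 2 or 4 (log2 fold changes of -1.57 to -0.86 over all omissions), nor with DESeq2 (adjusted p = 0.0695). Without cells above 25000 UMIs its fold change was -0.51 (adjusted p = 0.35) and that of Spp1 was -0.71. Such cells held 40.5% of the Gpnmb UMIs and 48.3% of the Spp1 UMIs of AppSAA mice given ATV:ISO, in 5.05% of their cells. Spp1 passed the threshold without AppSAA ATV:ISO replicate 4 (-1.59, adjusted p = 0.0339) or ATV:4D9 replicate 3 (-1.58, adjusted p = 0.0478).

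Next, 4D9 without the transport vehicle was set against ATV:ISO in AppSAA mice. These ATV:ISO mice also entered the choice of the genes, so this comparison is not independent of the choice either. ATV:ISO carries the vehicle and 4D9 does not, so the antibody target and the vehicle differ together here. Antibodies that differ in the vehicle alone are compared below, as ATV:4D9 against 4D9. Levels with 4D9 were near those with ATV:ISO: Spp1 at 743, 1067, 851 and 743 CPM, and Gpnmb at 77.6, 116, 133 and 111 CPM. Igf1 stood at 123, 137, 168 and 147 CPM, Fabp5 at 403, 434, 470 and 435 CPM and Lgals3 at 102, 88.9, 104 and 74.7 CPM. Every gene overlapped between 4D9 and ATV:ISO. The log2 fold changes of 4D9 over ATV:ISO were -0.01 ± 0.57 (SE) for Spp1, 0.12 ± 0.45 for Gpnmb, 0.21 ± 0.28 for Igf1, 0.20 ± 0.30 for Fabp5 and 0.17 ± 0.32 for Lgals3. With edgeR 0 of 5 genes were called, against 0% of all genes, and at an unadjusted p under 0.05 there were 79 genes and 0 of these 5. DESeq2 called 1 gene, none of these, and limma-voom 0. The standard errors leave room for a change of Spp1 of over 1 on the log2 scale in either direction.

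The comparison of ATV:4D9 with 4D9 shares no mouse with the genotype contrast that chose the genes. The small cluster in which they were also chosen for being high (finer cluster 6 below) includes cells of both groups. It made up a mean of 9.22% of the cells of a mouse with 4D9 and 2.55% with ATV:4D9. This favors lower values with ATV:4D9, so the comparison is not independent of the choice. Igf1 fell by 1.74 ± 0.29 on the log2 scale (SE, adjusted p = 3.61e-05), Fabp5 by 1.72 ± 0.31 (adjusted p = 9.51e-05) and Gpnmb by 1.24 ± 0.45 (adjusted p = 0.0267). For Igf1 and Fabp5 every ATV:4D9 mouse was below every 4D9 mouse. The same was true of Spp1, at 205 to 472 CPM with ATV:4D9 and 743 to 1067 CPM with 4D9, although its log2 fold change of -1.35 ± 0.58 missed the threshold (adjusted p = 0.0557), and with pool as a block it fell by 1.40 (adjusted p = 0.0196). For Gpnmb, 1 ATV:4D9 mouse at 82.0 CPM was above the lowest 4D9 mouse at 77.6 CPM. Lgals3 had a log2 fold change of -0.20 ± 0.32 (adjusted p = 0.614). The test called 3 of 5 genes, against 54.3% of all genes. The Gpnmb call did not hold without AppSAA 4D9 replicate 2 or 3 or ATV:4D9 replicate 1 or 4, nor without cells above 25000 UMIs (-0.65, adjusted p = 0.225), and Spp1 then had a fold change of -0.80. Without ATV:4D9 replicate 3, Spp1 passed the threshold (-1.57, adjusted p = 0.0497).

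Genotype was compared again under ATV:4D9, in mice outside the genotype contrast that chose the genes. The small cluster in which the genes were also chosen for being high (finer cluster 6 below) held cells of these mice. It held 392 cells of AppSAA and 7 of WT mice given ATV:4D9. This favors higher values in AppSAA mice, so the comparison is not independent of the choice. All 5 genes were higher in AppSAA than in WT mice with no overlap between the groups. The test called 5 of 5, against 11.8% of all genes. Gpnmb rose by 3.98 ± 0.53 on the log2 scale (SE, adjusted p = 2.16e-05), from 3.18 ± 2.60 to 45.1 ± 28.7 CPM (SD, n = 4). Spp1 rose by 3.84 ± 0.64 (adjusted p = 0.000294), from 25.0 ± 11.5 to 323 ± 124 CPM. Igf1 rose by 3.71 ± 0.32 (adjusted p = 1.39e-07), from 3.49 ± 1.68 to 41.6 ± 19.3 CPM. Fabp5 rose by 3.54 ± 0.33 (adjusted p = 4e-07), from 12.1 ± 5.20 to 128 ± 59.9 CPM. As the WT levels of Spp1, Gpnmb, Igf1 and Fabp5 were near those of homeostatic-like cells of WT mice given ATV:ISO, these folds depend on how much of them is background. Lgals3 rose by 1.07 ± 0.32 (adjusted p = 0.0343), from 40.3 ± 11.8 to 76.8 ± 19.3 CPM. Its call did not hold without WT ATV:4D9 replicate 2, 3 or 4 or AppSAA ATV:4D9 replicate 1 or 3, at log2 fold changes of 0.86 to 1.21.

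A test of whether the ATV:4D9 effect differed between AppSAA and WT mice called 0 of these 5 genes with edgeR, against 9.14% of all genes. At an unadjusted p under 0.05 there were 3041 genes and 1 of these 5, Lgals3. The difference in log2 fold change was -1.22 ± 0.46 (SE) for Lgals3 (adjusted p = 0.11), which rose in WT mice and had a log2 fold change of -0.04 in AppSAA mice, and it passed with limma-voom (-1.41, adjusted p = 0.0477), with pool as a block (-1.22, adjusted p = 0.0444) and without WT ATV:ISO replicate 2 (-1.89, adjusted p = 0.0015). It was 1.20 ± 0.81 for Spp1, -0.49 ± 0.71 for Gpnmb, -0.69 ± 0.43 for Igf1 and -0.49 ± 0.43 for Fabp5. The estimate for Spp1 was -0.15 without WT ATV:ISO replicate 2, and that for Gpnmb 0.16 without WT ATV:4D9 replicate 3, so the signs of these differences are not settled. This difference contains the genotype contrast under ATV:ISO that chose the genes, which favors values below 0, so it is not independent of the choice and its p-values support nothing about these genes.

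The authors deposited cluster numbers at resolution 0.2, with 6 coarser clusters, and 0.4, with 9 finer clusters, without names. Coarser cluster 1 and finer clusters 3 and 6 had all 10 DAM markers (these 5 genes left out) above the other cells and are called DAM-like. Coarser clusters 0 and 3 had all 10 homeostatic markers higher and are called homeostatic-like, though cluster 3 also had all 10 immediate early genes higher, by a median log2 ratio of 1.52 against 0.65 for its homeostatic markers. Coarser cluster 4 had higher levels of all 10 cell cycle markers and coarser cluster 5 of all 10 interferon response genes. Among the leading genes of finer cluster 2, most of whose cells lay in coarser cluster 3, were Klf2, Jun, Jund, Klf4 and Egr1. Coarser cluster 2 is left without a name. The clusters were made from the same expression values, so levels by cluster are a description. Finer cluster 6 held 3126 cells, of which 3124 were in coarser cluster 1.

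Finer cluster 6 held 85.3% of all 431959 Spp1 UMIs and 87.3% of all 52901 Gpnmb UMIs. It held 62.8% of the Fabp5 UMIs, 49.9% of the Igf1 UMIs and 35.6% of the Lgals3 UMIs. The median Spp1 level over the 12 mouse sums of this cluster was 6463 CPM, against 181 CPM over 17 sums in finer cluster 3 and 20.7 CPM over 20 sums in the homeostatic-like finer cluster 0. Those 12 sums were all of AppSAA mice, while the sums of finer clusters 3 and 0 included WT mice. Gpnmb showed the same order at 770.0, 16.1 and 2.39 CPM. Igf1, at 523, 119.6 and 4.77 CPM, and Fabp5, at 2010, 264 and 16.0 CPM, did so too. In finer cluster 8 the medians were 99.4 CPM for Spp1, 14.3 for Gpnmb, 95.6 for Igf1 and 319 for Fabp5. These 4 genes were thus higher in finer cluster 3 than in finer cluster 0 and higher still in finer cluster 6, which held the largest shares of the Spp1 and Gpnmb UMIs.

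**Figure D2:**
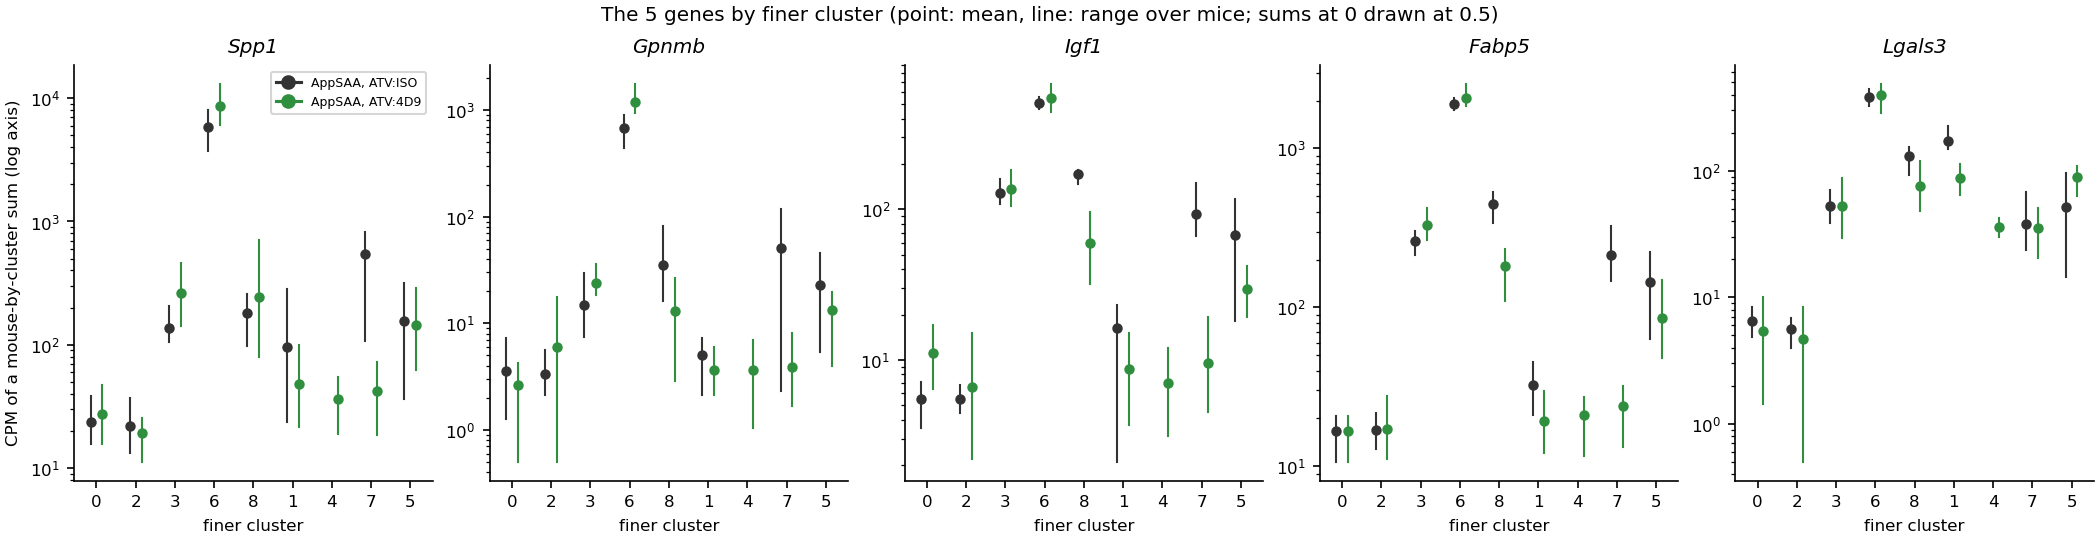
Level of each gene (CPM, log axis) by finer cluster in AppSAA mice given ATV:ISO or ATV:4D9, as the mean over mice (point) and the range (line) of sums of at least 20 cells, with sums at 0 drawn at 0.5 and no point for finer cluster 4 with ATV:ISO. Finer cluster 6 is highest for all 5 genes, and Spp1 there runs from 3717 to 8002 CPM with ATV:ISO and from 6098 to 13012 CPM with ATV:4D9.

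Lgals3 was spread differently. Over all mice 23.3% of its UMIs lay in finer cluster 1, and in AppSAA mice given ATV:4D9 that share was 38.0%, with 26.6% in finer cluster 5 and 13.5% in finer cluster 6. In AppSAA mice given ATV:ISO finer cluster 6 held 59.0% of the Lgals3 UMIs. Its median level was 100.8 CPM in finer cluster 1, 121 CPM in finer cluster 8 and 407 CPM in finer cluster 6, against 5.08 CPM in finer cluster 0. In finer cluster 1 Lgals3 was the only one of the 5 genes well above its level in homeostatic-like cells of WT mice given ATV:ISO, at 50.7 ± 16.3 CPM (SD, n = 4) in WT mice given ATV:4D9, where Spp1 stood at 19.8 ± 7.39, Igf1 at 3.30 ± 1.37, Fabp5 at 8.80 ± 2.71 and Gpnmb at 2.79 ± 2.10 CPM. The share of UMIs in finer cluster 6 was lower with ATV:4D9 than with ATV:ISO in AppSAA mice for the other genes too. Spp1 went from 89.7% to 73.3% and Gpnmb from 89.4% to 81.8%. Igf1 went from 51.7% to 38.7% and Fabp5 from 65.0% to 48.2%.

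**Figure D3:**
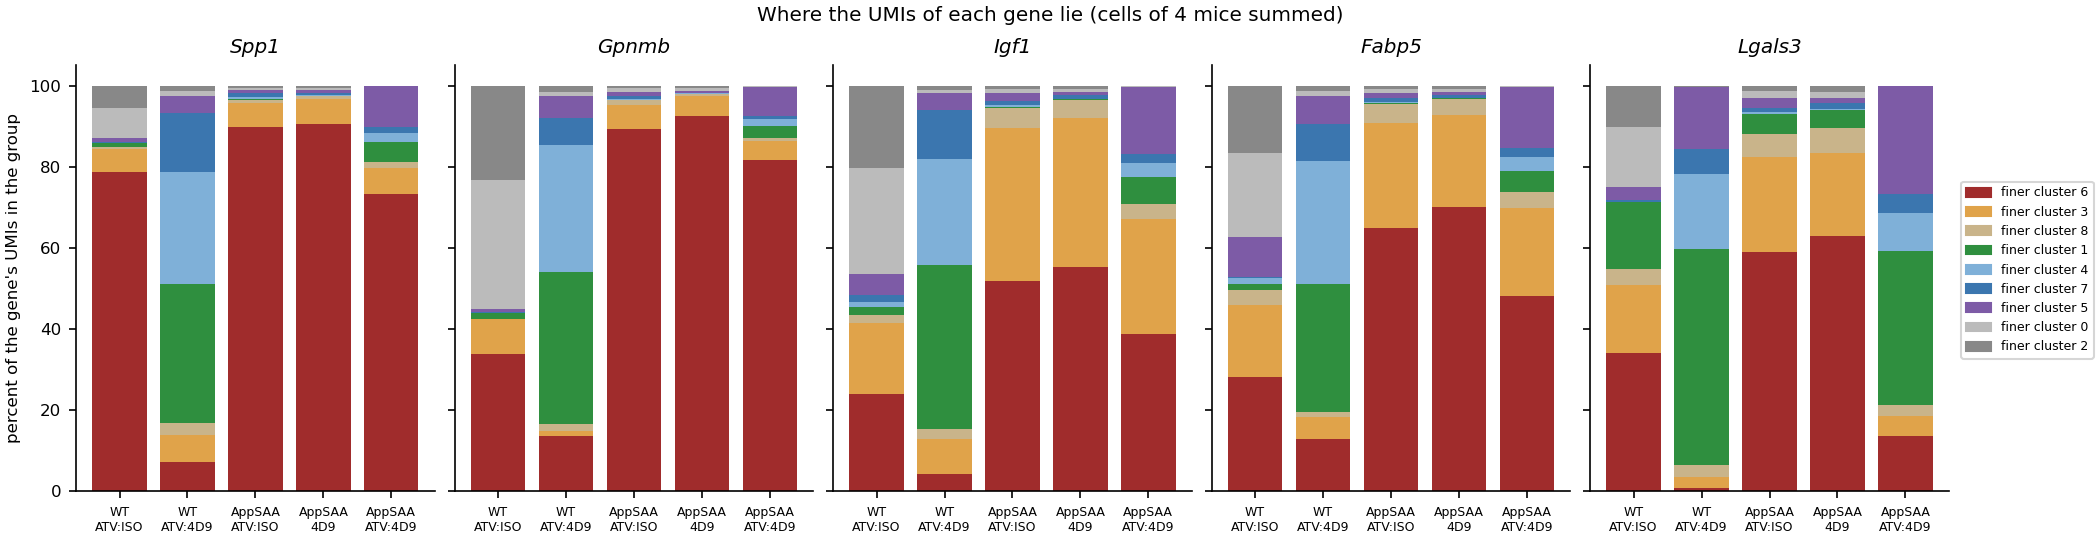
Share of the UMIs of each gene (percent) that lay in each finer cluster, stacked, for each group, summed over 4 mice. Finer cluster 6 takes 89.7% of the Spp1 UMIs in AppSAA mice given ATV:ISO and 13.5% of the Lgals3 UMIs in AppSAA mice given ATV:4D9.

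A few cells carried much of the Spp1 signal. In AppSAA mice given ATV:ISO the 20 cells richest in Spp1 held 36.2% to 63.9% of the Spp1 UMIs of a mouse, and with ATV:4D9 56.5% to 75.5%. For Gpnmb the ranges were 26.6% to 62.2% and 47.4% to 71.8%, and for Igf1 6.53% to 12.7% and 13.4% to 21.6%. With every cell thinned to 5000 UMIs, finer cluster 6 of AppSAA mice given ATV:ISO had a Spp1 UMI in 71.7% of cells, with a median of 3, a 90th percentile of 80 and a maximum of 582 UMIs. Gpnmb was found in 46.6% of these cells, Igf1 in 84.8%, Fabp5 in 94.5% and Lgals3 in 54.1%. Fabp5, with a median of 7 UMIs, was thus the most evenly detected of the 5 genes in the cluster, and Gpnmb, with a median of 0 and a 90th percentile of 10, the least.

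Among the thinned cells of finer cluster 6, 50.5% had UMIs of 4 or all 5 genes with ATV:ISO, 53.6% with 4D9 and 65.6% with ATV:4D9 in AppSAA mice. The share was 4.52% in finer cluster 7, 3.63% in finer cluster 8, 2.21% in finer cluster 3 and 0.0197% in finer cluster 0 with ATV:ISO. Cells of 4 mice were pooled for these shares, so they carry no spread between mice. Over all cells it was 0.125% in WT ATV:ISO, 0.0515% in WT ATV:4D9, 5.0% in AppSAA ATV:ISO, 6.24% in AppSAA 4D9 and 2.27% in AppSAA ATV:4D9 mice.

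**Figure D4:**
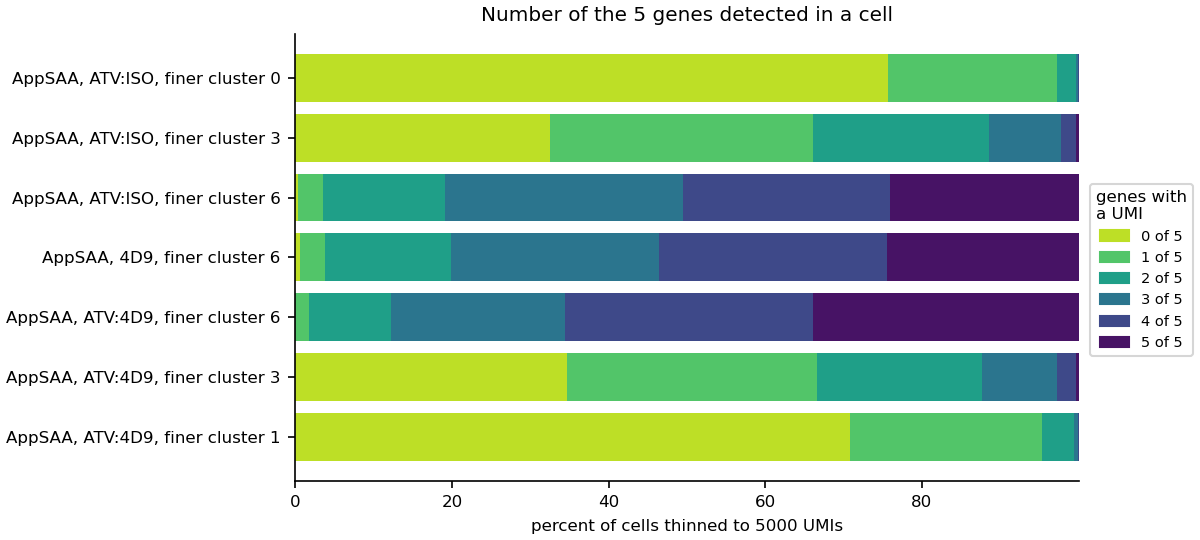
Share of cells (percent), after thinning to 5000 UMIs, by how many of the 5 genes had a UMI (color), in AppSAA mice for finer clusters 0, 3 and 6 with ATV:ISO, 6 with 4D9, and 6, 3 and 1 with ATV:4D9. Cells with 4 or 5 of the genes make up 50.5% of finer cluster 6 with ATV:ISO and 65.6% with ATV:4D9, and few cells of the other clusters shown.

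Shares of thinned cells with a UMI were compared over mice by exact permutation tests, 25 in all for 5 genes and 5 comparisons, two-sided, where 4 against 4 mice can reach no p below 0.0286. None of the 25 passed after adjustment, and 8 reached that smallest p (adjusted p = 0.0893). The mice given ATV:ISO entered the choice of the genes. The small cluster in which the genes were also chosen for being high held cells of the other groups too. None of these comparisons is therefore independent of the choice, and the shares and their overlap are given as description. For Igf1 the share in AppSAA mice was 10.8% ± 3.58 (SD, n = 4) with ATV:4D9 against 20.4% ± 3.01 with ATV:ISO and 22.4% ± 2.79 with 4D9, and 1.44% ± 0.715 in WT mice with ATV:4D9. For Fabp5 the shares were 15.4% ± 4.41, 26.2% ± 2.79, 28.3% ± 4.04 and 4.20% ± 1.37. The 3 comparisons of ATV:4D9 in AppSAA mice with these groups showed no overlap for either gene. Lgals3 was found in 8.09% ± 2.05 of cells of WT mice given ATV:4D9 against 3.37% ± 0.460 with ATV:ISO, and in 14.5% ± 3.49 of AppSAA cells with ATV:4D9, again without overlap. Spp1 was found in 14.9% ± 4.90 of AppSAA cells with ATV:4D9 and 19.8% ± 4.66 with ATV:ISO (exact permutation p = 0.229). Without thinning those shares were 31.3% and 30.4%. As 11.5% of finer cluster 0 cells of AppSAA mice given ATV:ISO also had a Spp1 UMI, these shares are not only of DAM-like cells. The thinning left out 4309 cells with fewer UMIs, 1084 and 402 in WT mice given ATV:ISO and ATV:4D9, and 1275, 961 and 587 in AppSAA mice given ATV:ISO, 4D9 and ATV:4D9.

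The falls in whole mice were then compared with levels inside clusters, which are conditional on clusters made from the same cells. Those against ATV:ISO also share the mice that chose the genes. In AppSAA mice finer cluster 6 made up 7.80% of cells (5.78 to 9.58 over mice) with ATV:ISO and 2.55% (1.28 to 3.37) with ATV:4D9. Coarser cluster 1 made up 38.3% (33.5 to 44.6) with ATV:ISO and 13.5% (9.24 to 16.4) with ATV:4D9. The part of these shares in the falls was not tested. Within the homeostatic-like clusters edgeR called 0 of 5 genes for ATV:4D9 against ATV:ISO in WT mice (6.85% of all genes called), 0 of 5 in AppSAA mice (4.49%) and 0 of 5 against 4D9 (3.62%). At an unadjusted p under 0.05 there were 2647, 2127 and 1919 genes, none of them among the 5, and limma-voom called 772, 501 and 412 genes and none of the 5. Log2 fold changes of the 5 genes there lay between -0.15 and 0.37. Over omissions of single mice they ran from -0.89 (Lgals3 against 4D9) to 0.93 (Gpnmb against 4D9).

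Within coarser cluster 1 the estimates for ATV:4D9 against ATV:ISO in AppSAA mice were above 0 for all 5 genes. In whole mice they were below 0. Within the cluster none was called, and those of Igf1, Fabp5 and Lgals3 were smaller than their SE. With ATV:4D9 against ATV:ISO the log2 fold change was 0.61 ± 0.58 (SE) for Spp1, 0.85 ± 0.36 for Gpnmb, 0.20 ± 0.22 for Igf1, 0.27 ± 0.28 for Fabp5 and 0.03 ± 0.37 for Lgals3. Of these edgeR called 0 of 5, against 1.51% of all genes, and with an unadjusted p under 0.05 there were 1251 genes and 1 of the 5, Gpnmb (0.0274). Gpnmb passed with pool as a block (0.83, adjusted p = 0.0316), and limma-voom called 198 genes and none of the 5. For 4D9 against ATV:ISO it was 0 of 5 and 0% of all genes, with 53 genes at an unadjusted p under 0.05 and 0 genes called by limma-voom. For ATV:4D9 against 4D9 it was 0 of 5 and 1.76% of all genes, with 1177 genes at an unadjusted p under 0.05 but none of the 5, and limma-voom called 218 genes and none of the 5. The fold changes there were 0.64 for Spp1, 0.73 for Gpnmb, -0.02 for Igf1, 0.06 for Fabp5 and -0.14 for Lgals3. Coarser cluster 1 contains nearly all of finer cluster 6, which held most of its Spp1 and Gpnmb UMIs and in which the genes were chosen for being high, so these fits are not independent of the choice and the call of Gpnmb with the block supports nothing.

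Finer clusters 3 and 6 were compared after these values had been seen. Spp1, Gpnmb and Fabp5 ranked 1 to 3 and Igf1 ranked 6 by fold among the genes that set finer cluster 6 apart, and the genes were chosen for being high there, so its values are a description with no test. In finer cluster 6 Gpnmb stood at 986, 1076, 1751 and 934 CPM in AppSAA mice given ATV:4D9 and at 656, 729, 890 and 436 CPM with ATV:ISO, without overlap, on 58 to 129 and 262 to 508 cells for each mouse. The log2 fold change was 0.89 ± 0.21 (SE). Spp1 stood at 13012, 7185, 8120 and 6098 CPM with ATV:4D9 and 7312, 4462, 8002 and 3717 CPM with ATV:ISO, with overlapping groups (log2 fold change 0.65 ± 0.26). Igf1 lay at 441 to 677 against 463 to 555 CPM (0.19 ± 0.11), Fabp5 at 1848 to 2537 against 1737 to 2062 CPM (0.20 ± 0.11) and Lgals3 at 285 to 484 against 324 to 440 CPM (0.12 ± 0.17). The fit across all genes called 1 of 5, Gpnmb, beside 1.58% of all genes, and not without AppSAA ATV:ISO replicate 1, 2 or 4 or ATV:4D9 replicate 1, 2 or 3, and nothing is read from it.

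In finer cluster 3 Spp1 stood at 459, 181, 278 and 141 CPM with ATV:4D9 and 115, 106, 207 and 123 CPM with ATV:ISO, with overlapping groups. The log2 fold change was 0.98 ± 0.34 (SE) for Spp1, 0.65 ± 0.37 for Gpnmb, 0.11 ± 0.15 for Igf1, 0.35 ± 0.15 for Fabp5 and -0.03 ± 0.29 for Lgals3. Over omissions of single mice it ran from 0.55 to 1.22 for Spp1, from 0.41 to 1.24 for Gpnmb and from 0.20 to 0.46 for Fabp5. With edgeR 0 of 5 genes were called, against 1.66% of all genes, with 1178 genes and 2 of the 5 at an unadjusted p under 0.05, and limma-voom called 189 genes and none of the 5. With pool as a block Spp1 (0.92, adjusted p = 0.0359), Gpnmb (0.77, adjusted p = 0.00406) and Fabp5 (0.34, adjusted p = 0.027) passed.

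**Figure D5:**
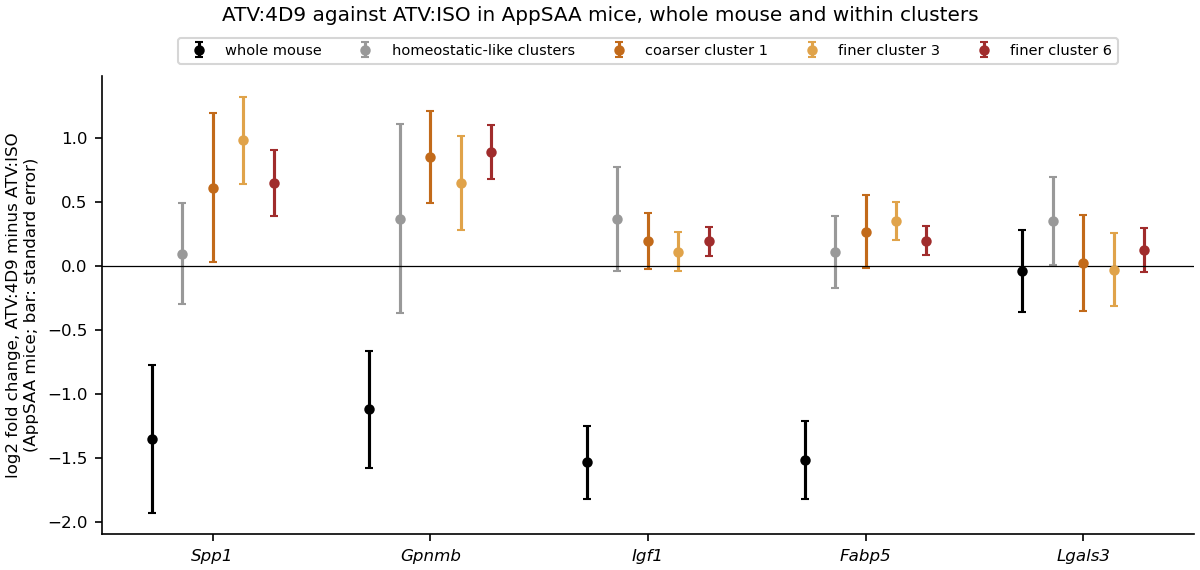
Log2 fold change of ATV:4D9 over ATV:ISO in AppSAA mice (point) with its standard error (line) for each gene in whole mice and within the homeostatic-like clusters, coarser cluster 1 and finer clusters 3 and 6. Spp1 is at -1.35 in whole mice and at 0.65 in finer cluster 6, and Igf1 at -1.53 and 0.19.

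Under ATV:4D9, genotype was also compared within coarser clusters 2, 4 and 5, chosen because earlier results of these data had shown them to be larger with ATV:4D9. The genes were chosen for being higher in AppSAA than in WT mice, and the clusters were made from these same cells. That choice favors higher values in AppSAA mice, so the counts and p-values in these clusters are no independent support. In the interferon-like cluster 5, Igf1 stood at 16.6, 26.2, 42.4 and 26.2 CPM in AppSAA mice and 0.452, 2.60, 7.85 and 3.68 CPM in WT mice, without overlap, and rose by 3.21 ± 0.48 on the log2 scale (SE, adjusted p = 0.00011). Fabp5 rose by 2.29 ± 0.42 (adjusted p = 0.000967), from 5.43 to 29.9 CPM in WT to 43.4 to 131 CPM in AppSAA mice, and Spp1 by 2.57 ± 0.67 (adjusted p = 0.0179). The Spp1 call did not hold without WT ATV:4D9 replicate 1, 2 or 4 or AppSAA ATV:4D9 replicate 3. Gpnmb had a log2 fold change of 1.90 ± 0.80 (adjusted p = 0.182, and with pool as a block 1.80, adjusted p = 0.00725). It passed without the filter on low counts (1.91 ± 0.24, adjusted p = 1.02e-12) and without AppSAA ATV:4D9 replicate 1. The SE without the filter was far below the 0.80 of the main fit on the same mice, so nothing is read from that p-value. Lgals3 stood at 108, 63.3, 90.2 and 86.0 CPM in AppSAA and 124, 107, 85.9 and 159 CPM in WT mice, a log2 fold change of -0.39 ± 0.29 (adjusted p = 0.508). In all, 3 of 5 genes were called, against 6.87% of all genes. The WT sums of cluster 5 came from 99 to 253 cells for each mouse and the AppSAA sums from 690 to 1071. The WT levels of Igf1 rest on few UMIs, and how much of them is background was not tested.

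In cluster 2 Igf1 rose by 1.49 ± 0.30 (SE, adjusted p = 0.00408), from 2.92, 1.74, 4.93 and 5.14 to 5.27, 6.11, 15.7 and 12.996 CPM, and Fabp5 by 1.33 ± 0.31 (adjusted p = 0.0165), from 8.39, 5.98, 11.95 and 14.7 to 16.8, 15.8, 37.6 and 29.1 CPM. Both showed no overlap, and 2 of 5 genes were called, against 2.07% of all genes. Fabp5 missed the threshold without WT ATV:4D9 replicate 2 (adjusted p = 0.108) or AppSAA ATV:4D9 replicate 3 (adjusted p = 0.118). With pool as a block Spp1 (1.36, adjusted p = 0.032) and Lgals3 (0.82, adjusted p = 0.028) passed too. In the cycling-like cluster 4, Igf1 rose by 1.36 ± 0.33 (adjusted p = 0.0204), from 1.51, 1.78, 4.20 and 2.75 to 3.77, 4.42, 12.5 and 5.94 CPM, with overlap, and was the 1 of 5 called, against 2.76% of all genes. This call did not hold without WT ATV:4D9 replicate 1, 2 or 4 or AppSAA ATV:4D9 replicate 3. With pool as a block Fabp5 (1.13, adjusted p = 0.00534) and Lgals3 (1.01, adjusted p = 8.32e-05) passed as well. Without sums under 50 cells Igf1 missed the threshold there (1.38, adjusted p = 0.078) and Fabp5 passed it (1.08, adjusted p = 0.0332). The AppSAA levels of Igf1 in clusters 2 and 4 ran from 3.77 to 15.7 CPM, beside 4.04 to 7.38 CPM in homeostatic-like cells of AppSAA mice given ATV:ISO, and the part of background RNA in these rises was not tested.

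Other genes of the same biology were read from lists that were drawn up with earlier results known. Of 24 other plaque-response genes, 15 rose and 2 fell with ATV:4D9 in WT mice, where 63.3% of all genes were called, at a median log2 fold change of 0.45 against -0.05 over all genes tested and -0.85 over the 5 genes. Lgals1 (galectin-1) rose by 2.13 ± 0.21 (SE, adjusted p = 2.61e-08) and Lpl (lipoprotein lipase) by 1.83 ± 0.19 (adjusted p = 7.85e-08). In AppSAA mice 1 rose and 16 fell with ATV:4D9 against ATV:ISO, where 55.1% of all genes were called, at a median of -0.50 against -1.35 for the 5 genes. Against 4D9, where 54.3% were called, 1 rose and 17 fell, with the chemokine Ccl6 (-1.92 ± 0.15) and the pyrophosphate transporter Ank (-1.58 ± 0.10) the most. Under ATV:4D9, where 11.8% were called, 17 were higher and 0 lower in AppSAA than in WT mice, at a median of 0.61 against 3.71 for the 5 genes, with Apoe at 2.66 ± 0.25 and Axl at 2.16 ± 0.14.

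Of 8 tested osteopontin receptor genes 2 rose and 3 fell with ATV:4D9 in WT mice, and 2 rose and 4 fell in AppSAA mice against 4D9. As 63.3% and 54.3% of all genes were called in these comparisons, nothing about the lists is read from counts of this size. The integrin gene Itga5 rose in both (1.00 ± 0.17 and 0.76 ± 0.16 on the log2 scale, SE), Itga9 fell by 0.90 ± 0.12 in WT mice and Itgb3 fell by 0.71 ± 0.08 in AppSAA mice. Of 9 tested genes of the IGF system 2 rose and 3 fell in WT mice, among them the insulin receptor Insr (-1.14 ± 0.20) and the adaptor Irs2 (-1.03 ± 0.17). Against 4D9 in AppSAA mice 3 rose and 3 fell, with Insr at -0.80 ± 0.19 and Igf1r, the receptor of IGF-1, at -0.65 ± 0.15. Igf2r, the receptor that takes up IGF-2, had the largest change of the list (2.04 ± 0.30 in WT and 2.18 ± 0.26 in AppSAA mice), at a mean of 1.25 CPM, and is named after its value was seen. Of a list of 6 genes, made up of other galectins and Lgals3bp, a binding partner of galectin-3, 3 rose and 1 fell in both comparisons, with Lgals3bp at 1.04 ± 0.13 and 0.87 ± 0.13 and Lgals9 at 0.85 ± 0.07 in AppSAA mice. Fabp3 was the only other fatty acid binding protein gene tested, and it fell by 1.04 ± 0.17 in AppSAA mice. Of the 5 genes for MITF and TFE factors and the Gpnmb paralogue, 3 fell in WT mice, and 1 rose and 3 fell in AppSAA mice, with Mitf at -0.95 ± 0.09 and -0.87 ± 0.09 and Tfe3 at -0.83 ± 0.12 and -0.53 ± 0.12. The gene that rose was Tfec (2.03 ± 0.46, at a mean of 0.188 CPM), also named after its value was seen. Adjusted p-values of the genes named here were at most 0.0016. Under ATV:4D9, where 11.8% of all genes were called, AppSAA exceeded WT mice for 1 osteopontin receptor, 1 IGF system gene and 2 genes of the galectin list (Lgals3bp 1.16 ± 0.13, Lgals9 0.40 ± 0.07), for Fabp3 (2.64 ± 0.19) and for none of the MITF and TFE list.

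The genes whose level followed each member most closely are given as a description, by Pearson's r of log2 CPM over mice among 8027 genes with a mean of at least 10 CPM. The points share pools and groups, so differences between groups set much of r. Over 20 mice the closest to Spp1 were Apoe (0.955), Fabp5 (0.955) and Flt1 (0.945), and to Gpnmb they were Mamdc2 (0.990), Fabp5 (0.978) and Igf1 (0.978). Igf1 and Fabp5 were closest to each other (0.998), followed by Mamdc2 (0.993 and 0.991) and Apoe (0.993 and 0.995). Lgals3 was closest to Gla (0.955), which encodes a lysosomal galactosidase, Fam20c (0.9504) and Cox6a2 (0.947). Its r with the other members was 0.735 for Spp1, 0.777 for Gpnmb, 0.775 for Igf1 and 0.764 for Fabp5. Over the 12 AppSAA mice Lgals3 had an r of 0.283 to 0.493 with the other members, which had 0.852 to 0.990 among themselves. There the closest were Fabp3 (0.933), Tmem144 (0.928) and Senp6 (0.926) to Spp1, and 4933421O10Rik (0.936), Exoc8 (0.932) and Mamdc2 (0.926) to Gpnmb. Igf1 was closest to Alg11 (0.995), Mamdc2 (0.990) and Fabp5 (0.990), Fabp5 to Alg11 (0.992) and Igf1 (0.990), and Lgals3 to the acid glucosidase gene Gaa (0.824), Gstp1 (0.810) and Gm10076 (0.808).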

How the data were processed

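Microglia of 20 mice were profiled by droplet single-cell RNA-seq. Per the submitters' processing notes the authors used Cell Ranger 6.1.1 and mm10, assigned cells to mice by tags, and clustered the integrated cells. The matrix they deposited holds UMI counts without normalization, and the deposited annotation gives each cell's mouse, group, pool, cluster and mitochondrial percent. No cell was removed, and no doublet caller was run. Whether doublets were removed before deposit is not given in the sources used here. There were 0 unused columns of per-sample values.

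UMIs were summed by mouse and, for sums of at least 20 cells, by mouse and cluster. Sums were tested with edgeR 4.0.16 (TMM, filterByExpr, quasi-likelihood, R 4.3.3), all groups in 1 fit, with p-values adjusted by Benjamini-Hochberg over all genes tested and called at 0.05. The study's method, limma-voom (limma 3.58.1), DESeq2 1.42.0, RLE size factors, no filter on low counts, pool as a block, at least 50 cells, and omission of each mouse or of cells above 25000 UMIs were alternatives. Pools pair the mice by the labels, and deviations from the group means correlated within pools in 40 of 40 pairs (r 0.143 to 0.607). Whether the 4 mice of a group were littermates is not given, and p-values measure only the spread between them.

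The 5 genes, the lists and the rule for named genes (from each list the 2 called genes with the largest change among those with a mean of at least 10 CPM, and the 3 genes most like each member) were chosen with earlier results of these data known. A gene that the rule names is not reported here. Promoters came from RefSeq on GRCm38.p6, with 4 of 5 members matched. The edgeR and permutation steps were tested on simulated data. Python 3.11.15 with scipy 1.17.1 and numpy 2.4.6 was used for shares. Figures were drawn with matplotlib 3.10.9.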

Additional observations from a re-analysis of the deposited data

Results flagged for a closer look

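Of 100 groups of 4 mice tested for a mouse far from its group (Dixon's ratio above its critical value), 5 were marked, which is about the 1 in 20 that chance gives. Lgals3 stood at 22.9 CPM in WT ATV:4D9 replicate 2, against 44.4 to 48.8 CPM in the other mice, and at 40.0 CPM in WT ATV:ISO replicate 2, against 10.7 to 14.3 CPM. Spp1 stood at 42.1 CPM in WT ATV:4D9 replicate 3, against 17.5 to 21.3 CPM. Within finer cluster 3 Gpnmb stood at 35.8 CPM in AppSAA ATV:4D9 replicate 3, against 18.2 to 20.5 CPM. Within finer cluster 6 Lgals3 stood at 314 CPM in AppSAA 4D9 replicate 4, against 404 to 415 CPM.

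The ATV:4D9 effect differed between AppSAA and WT mice, by the interaction term of edgeR, for 18 of 24 other plaque-response genes, all with a lower effect in AppSAA mice, where 9.14% of all genes passed. All 24 were higher in AppSAA than in WT mice under ATV:ISO, and the list was drawn up with earlier results known. The interaction contains that contrast, which favors values below 0 for such genes. Nothing about the list is therefore read from this count. The largest differences in log2 fold change were those of Lpl (-2.50 ± 0.27, SE) and the cystatin gene Cst7 (-2.10 ± 0.17), both of which rose in WT and fell in AppSAA mice. The effect also differed for 1 of 8 osteopontin receptors, Itgb3 (-0.56 ± 0.12), for 3 genes of the galectin list, Lgals9 (0.43), Lgals1 (-1.09 ± 0.28) and Lgals8 (0.47), and for the 1 fatty acid binding protein gene tested, Fabp3 (-1.23 ± 0.27).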

How the results depend on the processing

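Over changes of tool, scaling, filter, block or cells, no fold change of a called gene was reversed. With pool as a replicate block the number of the 5 genes called went from 3 to 4 for ATV:4D9 against ATV:ISO in AppSAA mice and against 4D9, from 0 to 1 for the interaction, from 0 to 1 within coarser cluster 1 (ATV:4D9 against ATV:ISO), from 2 to 4 in cluster 2, from 1 to 3 in cluster 4, from 3 to 4 in cluster 5, from 0 to 3 in finer cluster 3 and from 1 to 2 in finer cluster 6, where the counts are a description. Apart from finer cluster 6, the block changed the calls named in the report and no other call of these 5 genes. Limma-voom called 1 of the 5 genes for the interaction and 2 in cluster 4, beside 1214 and 514 of all genes. Without the filter on low counts 4 of the 5 genes were called in cluster 2, 3 in cluster 4, 4 in cluster 5 and 1 in finer cluster 3. Beside them 347, 390, 889 and 223 of all genes were called. Nothing is read from the unfiltered count in cluster 5. Leaving out each mouse, the number called ranged from 2 to 5 for ATV:4D9 against ATV:ISO in WT mice, from 2 to 4 in AppSAA mice and against 4D9, from 4 to 5 for genotype under ATV:4D9, from 0 to 1 for the interaction, from 1 to 2 in cluster 2, from 0 to 1 in cluster 4, from 2 to 4 in cluster 5 and from 0 to 1 in finer cluster 6. With the block the calls over all genes went from 7742 to 9943 for ATV:4D9 against ATV:ISO in AppSAA mice and from 7633 to 9823 against 4D9. They went from 1661 to 4409 for genotype under ATV:4D9, from 3960 to 7166 under ATV:ISO and from 1285 to 4284 for the interaction. Within coarser cluster 1 (ATV:4D9 against ATV:ISO) they went from 184 to 947. They went from 199 to 710 in cluster 2, from 313 to 1110 in cluster 4 and from 678 to 1556 in cluster 5. In finer cluster 3 they went from 193 to 945 and in finer cluster 6 from 168 to 474. The percentages of all genes above thus depend on the block. In WT mice given ATV:4D9 Gpnmb and Igf1 were below 7 CPM in every mouse. The causes were not tested.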
